A study of Mus musculus with 9 samples.

Results

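Regions of open chromatin around 9 genes of synaptic and cell-to-cell adhesion were described in the alpha cell line alphaTC1: the neurexins Nrxn2 and Nrxn3, the neuroligins Nlgn1 and Nlgn2, the secreted neurexin ligands Nxph1 and Cbln4, the cadherins Cdh2 and Cdh9, and Flrt2. A region was taken when it overlapped the body of a member gene, on mm10 (GRCm38), or the 50 kb on both sides of it. This chose 114 of the 80827 consensus regions, and 0 of them lay in the windows of 2 members. Nrxn3 held 36 regions, Nrxn2 held 17, Nlgn1, Nlgn2 and Nxph1 held 13 each, Cdh2 held 9, Cbln4 held 6, Cdh9 held 4 and Flrt2 held 3. Of the 114 regions, 82 overlapped a gene body and 32 lay beside it. All 114 passed the filter on low counts, which asks for enough counts in at least as many libraries as a group holds. The outermost members lay 48.98 kb from Nxph1 and 48.44 kb from Nrxn3, and the nearest regions left out lay 50.64 kb from Cbln4 and 54.47 kb from Nxph1.

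Neurexins are cell-surface proteins of the presynaptic side of a synapse, and they make long alpha forms and shorter beta forms from separate start sites of the same gene. Neuroligins bind them from the postsynaptic side, while neurexophilins such as Nxph1 and cerebellins such as Cbln4 are secreted proteins that bind neurexins from outside the cell. Cdh2 (N-cadherin) and Cdh9 are calcium-dependent cadherins, which join like cells, and Flrt2 is a membrane protein that binds latrophilins and Unc5 receptors. Islet endocrine cells secrete hormone granules with much of the machinery of the synapse, and neurexins, neuroligins and N-cadherin are made in islets as well as in neurons.

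The assay was ATAC-seq, in which a transposase inserts sequencing adapters into open chromatin. The murine alphaTC1 cells were collected 5 days after transduction with an empty vector, with an shRNA against Smndc1, a splicing factor, or with an shRNA against Atrx, a chromatin remodeler. Each group has 3 libraries, which the labels call biological replicates without saying whether they came from separate cultures, so p-values measure the spread between these libraries. All groups share the cell line and the transduction, the labels name 1 shRNA for each target, and both shRNA groups are compared with the same 3 empty vector libraries. ATAC-seq does not measure how far either shRNA lowered its RNA.

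Levels are CPM, the counts of a region per M counts over all regions, scaled by TMM, which gives each library 1 factor. The test was edgeR's quasi-likelihood F test over 80345 regions, fitted with TMM factors and, as an alternative, with trended offsets, a loess curve for each library against mean count that levels the contrast between strong and weak regions. A region is called at a Benjamini-Hochberg adjusted p under 0.05, and fold changes are log2 values ± SE. Library totals ran from 5.29 to 8.15 M counts. The strongest 10% of regions held 38.4% to 38.7% of the counts in replicate 3 of each group and 43.1% to 48.7% in the other 6 libraries, a difference that does not follow the groups and is the reason both fits are given.

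RefSeq start sites show how closely the open regions sit on the genes. The RefSeq table of promoter windows (GRCm38.p6), each from 250 bases before to 50 after a start, held 10 windows for 7 of the 9 members. Of these 10 windows, 3 lay wholly inside a consensus region, 1 lay partly inside and 6 lay outside. The 4 windows printed here belong to the members whose start regions are described below. Nrxn3 has 1 of its 3 listed starts in an open region, inside the gene body (chr12:89812233-89812532, plus strand). Nlgn1 has its second listed start in one (chr3:26153937-26154236, minus strand), and Cdh9 its start (chr15:16728665-16728964, plus strand). Another region overlapped the upstream end of the Nrxn3 body (chr12:88722549-88723261) but no listed window. It stood at 21.8, 26.2 and 15.3 CPM with empty vector and was not called. The Cbln4 window (chr2:172043417-172043716, minus strand) is shown because the region that rose lies just inside the gene, 39 bp past the window and 88 bp from the start itself. Letters run 5′ to 3′ on the strand of the gene, and capitals mark matches on either strand to the motifs named in the next paragraph, other than the CTCF core.
Nrxn3 internal start: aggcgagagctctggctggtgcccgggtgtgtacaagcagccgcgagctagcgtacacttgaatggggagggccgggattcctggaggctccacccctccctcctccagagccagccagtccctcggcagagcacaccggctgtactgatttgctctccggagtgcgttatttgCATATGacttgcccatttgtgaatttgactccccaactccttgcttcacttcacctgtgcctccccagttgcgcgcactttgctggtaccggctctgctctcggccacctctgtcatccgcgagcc
Nlgn1 second start: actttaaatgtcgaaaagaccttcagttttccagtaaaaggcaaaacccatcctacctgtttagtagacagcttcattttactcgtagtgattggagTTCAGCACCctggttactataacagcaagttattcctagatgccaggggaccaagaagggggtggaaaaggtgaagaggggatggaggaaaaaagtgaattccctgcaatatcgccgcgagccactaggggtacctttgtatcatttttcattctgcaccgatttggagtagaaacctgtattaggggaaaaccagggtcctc
Cbln4 start: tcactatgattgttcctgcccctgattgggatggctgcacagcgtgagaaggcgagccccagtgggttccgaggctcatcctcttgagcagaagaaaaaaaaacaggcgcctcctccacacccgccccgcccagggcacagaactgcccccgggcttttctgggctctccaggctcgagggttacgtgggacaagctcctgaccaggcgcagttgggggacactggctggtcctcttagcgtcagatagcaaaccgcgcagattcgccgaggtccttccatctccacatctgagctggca
Cdh9 start: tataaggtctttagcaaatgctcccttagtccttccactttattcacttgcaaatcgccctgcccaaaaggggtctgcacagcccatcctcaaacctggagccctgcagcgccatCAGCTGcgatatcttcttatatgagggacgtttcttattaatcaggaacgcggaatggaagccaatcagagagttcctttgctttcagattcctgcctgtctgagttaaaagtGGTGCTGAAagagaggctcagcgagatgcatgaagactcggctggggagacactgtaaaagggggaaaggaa

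The motifs searched on both strands were TTCAGCACC and GGACAG, the left and right parts of the RE1 element, the CRE TGACGTCA, the FOX motif TGTTTAC, the E-boxes CAGCTG and CATATG, and the CTCF core CCCTC. TTCAGCACC was found in 0.371% of all 32851 windows and in 2 of the 10 member windows, those of Nlgn1 and Cdh9 above. CATATG was found in 3.91% of all windows and in 1 member window, that of the Nrxn3 internal start. CAGCTG was found in 16.3% of all windows and in 2 member windows, those of Cdh9 and Nlgn2. GGACAG was found in 22.2% of all windows and in 2 member windows, the CRE (1.79%) and the FOX motif (3.65%) in 0, and the short CTCF core (66.0%) in 8. In the printed windows no capitalised match overlaps a CTCF core match, and a match describes letters, not binding. The GC content of the printed windows was 60.7% for Nrxn3, 44.7% for Nlgn1, 60.3% for Cbln4 and 48.7% for Cdh9, against a median of 52.7% over all windows.

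The member windows differed in how open they were, and their order was led by genes whose windows hold strong regions at gene ends. Per kb of region, the summed level with empty vector was 36.0 ± 3.03 CPM for Nlgn2 (mean ± SD, n = 3), 27.2 ± 6.73 for Cdh2, 23.5 ± 2.63 for Cbln4, 21.7 ± 0.535 for Nrxn2 and 15.5 ± 2.79 for Nxph1. Lower levels per kb were found for Nrxn3 (13.3 ± 1.38 CPM), Cdh9 (9.31 ± 1.03), Nlgn1 (8.76 ± 1.75) and Flrt2 (8.44 ± 1.26). Down this order, the libraries of Cdh2, Nxph1 and Cdh9 did not overlap those of the gene above, while all other neighbours overlapped. In Nlgn2, 10 of the 13 regions lay in or at the end of another coding gene, among them Chrnb1, Fgf11, Tmem102, Tmem256, Plscr3, Kctd11 and Acap1, so the level of that window is not that of Nlgn2 alone. The same held for 3 of the 17 regions of Nrxn2 and for 0 of the other members' regions.

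**Figure D1:**
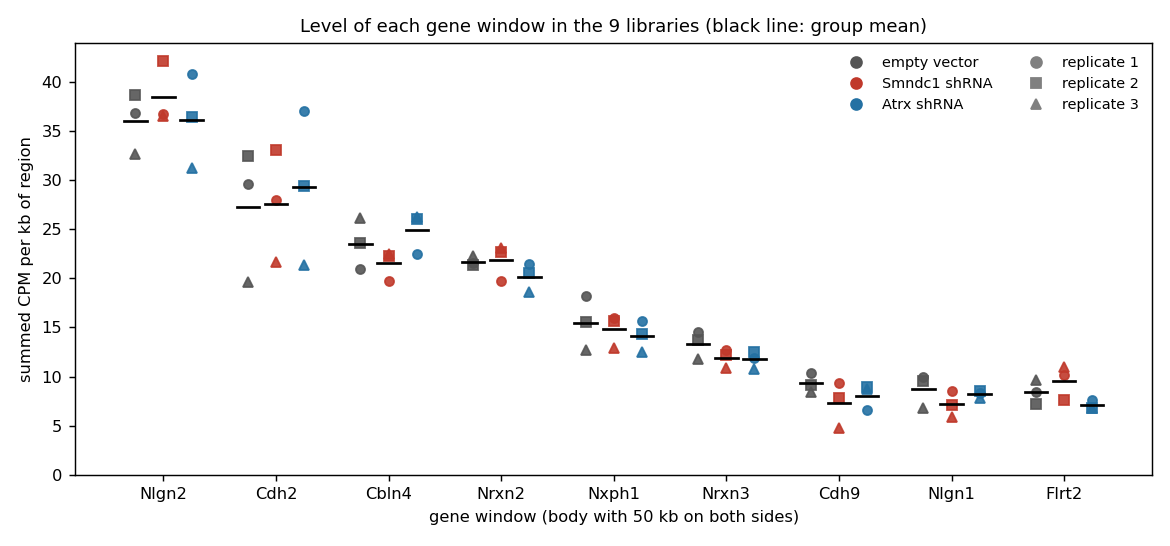
Summed CPM per kb of region in each gene window (y axis) for the 9 members in order of their empty vector mean, with 1 point for each library, coloured by group and shaped by replicate number, and black lines at group means. Nlgn2 stands highest at 36.0 CPM per kb with empty vector and Flrt2 lowest at 8.44, and within every gene the 3 groups overlap.

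Single regions ranged from 1.33 to 112 CPM in their mean over the 9 libraries, with a median of 5.96 against 5.21 over all regions. The most open was the 1896 bp region at the high-coordinate end of Cdh2, followed by the 1901 bp region at the Nxph1 start (67.3 CPM) and the region just upstream of Nlgn2 (63.4 CPM). For single regions, most open means the highest CPM, not divided by width, which favours wide regions. Per kb of width the Nlgn2 region stood at 109 CPM, the Cdh2 region at 59.2 and the Nxph1 region at 35.4. Of the 114 regions, 19 reached 20 CPM, 48 lay under 5 CPM and 50 had the width of 501 bp that is also the median over all regions. Several windows were thinly filled: Nlgn1 held 1.29 regions per 100 kb, Flrt2 1.55, Cdh9 1.75, Nrxn3 2.1, Cdh2 2.81 and Nxph1 3.24. The median over the windows of all coding genes was 5.0. Nlgn2 held 11.33, Nrxn2 7.93 and Cbln4 5.6.

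With Smndc1 shRNA, a few regions around Nrxn3, Cbln4 and Nxph1 changed in 1 or both fits, and 0 member windows passed the test as sums. In the TMM fit 1 of the 114 member regions was called, lower, beside Nrxn3; over all regions 0.156% were called. With trended offsets 5 were called, 2 higher and 3 lower, beside 1.11% over all regions. The 2 that rose lay in Nrxn3 and at the Cbln4 start, and the 3 that fell lay beside Nrxn3, beside Cbln4 and in Nxph1. The median fold change of the 114 regions was -0.049 in the TMM fit, beside 0.018 over all regions. It was negative in 62 of the 114 (54.4%), beside 48.2% of all regions. In bulk libraries, a lower level in every cell and fewer cells with the region open cannot be told apart. Without regard to a test, 11 member regions (9.65%) had all 3 Smndc1 shRNA libraries above all 3 empty vector libraries, beside 5.76% of all regions, and 15 (13.2%) had them all below, beside 7.02%. At an unadjusted p under 0.05 there were 13 member regions (11.4%) in the TMM fit, beside 8.1% of all regions, and 20 (17.5%) with trended offsets, beside 12.4%. DESeq2 and limma voom called 0 members, beside only 20 and 28 of all 80345 regions. At that unadjusted p they had 11 and 13 of the 114 members, beside 5522 and 6617 of all 80345 regions.

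With Atrx shRNA, 0 member regions were called in the TMM fit, in which 0% of all regions were called, and 0 with trended offsets, where 0.256% were. At an unadjusted p under 0.05 there were 6 member regions (5.3%) in the TMM fit, beside 5.7% of all regions, and 10 (8.8%) with trended offsets, beside 9.5%, so both shares were at the level of all regions. DESeq2 and limma voom called 0 members, and also 0 of all 80345 regions. At that unadjusted p they had 4 of the 114 members each, beside 3806 and 4417 of all 80345 regions. All 3 Atrx shRNA libraries lay above all 3 of empty vector in 5 member regions (4.39%), beside 4.83% of all regions, and below in 9 (7.89%), beside 5.65%. The median fold change of the members was -0.097, beside 0.006 over all regions.

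Set against each other, the shRNA groups differed in 0 member regions in the TMM fit, beside 0.0759% of all regions, and in 3 with trended offsets, beside 0.576%. Of these 3, the Nrxn3 region was higher with Smndc1 shRNA, and regions beside Cbln4 and in Cdh2 were lower. At an unadjusted p under 0.05 there were 13 member regions (11.4%) in the TMM fit, beside 5.4% of all regions, and 20 (17.5%) with trended offsets, beside 9.2%. DESeq2 and limma voom called 0 members, beside only 13 and 9 of all 80345 regions. At that unadjusted p they had 10 and 13 of the 114 members, beside 3483 and 3931 of all 80345 regions.

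**Figure D2:**
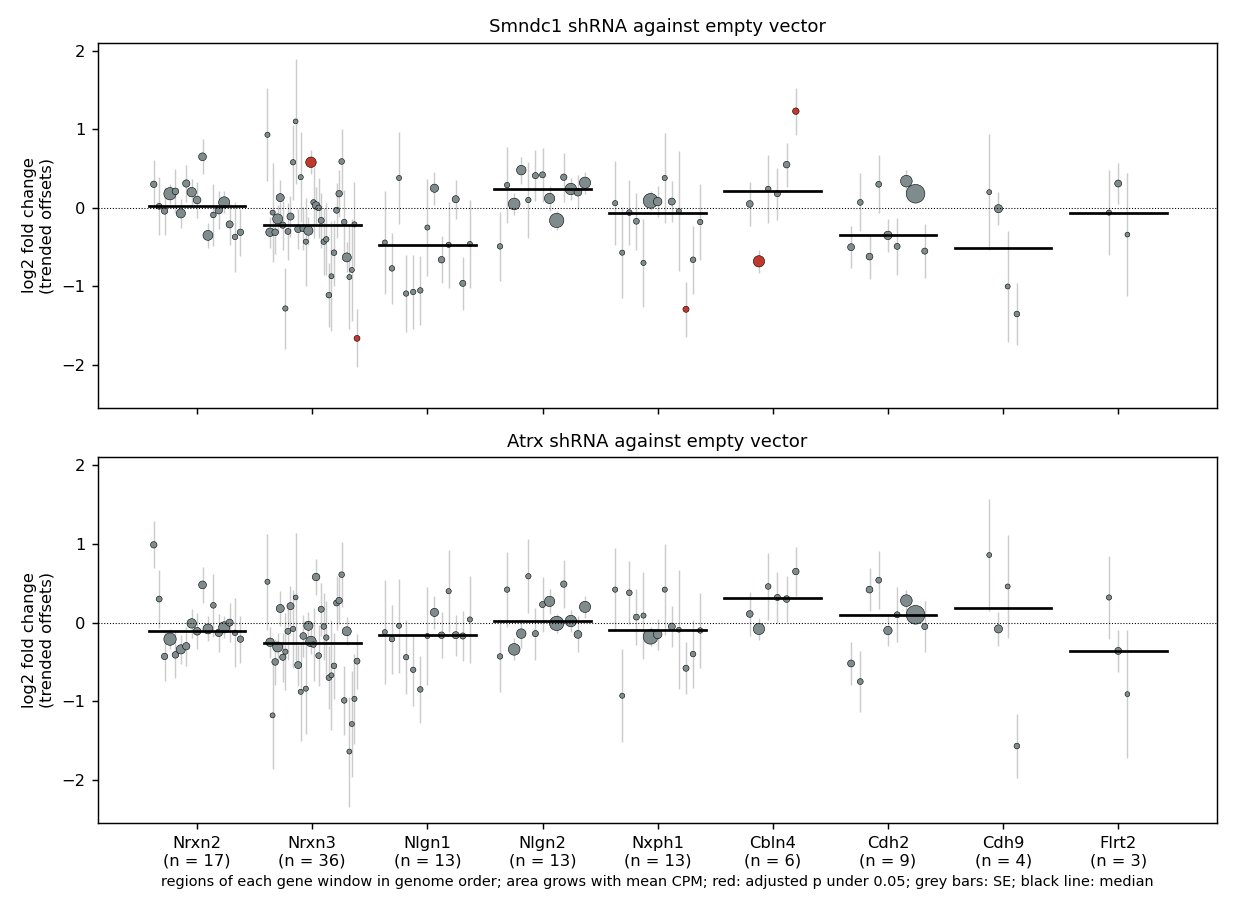
Log2 fold changes with trended offsets (y axis) of all 114 member regions, ordered along the genome within each gene, for Smndc1 shRNA (top) and Atrx shRNA (bottom) against the same empty vector libraries; area grows with mean CPM, grey bars are SE, black lines are medians and red marks an adjusted p under 0.05. The 5 red points of the upper panel lie in the windows of Nrxn3, Nxph1 and Cbln4, and the lower panel has 0.

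Nrxn3, a neurexin gene of 1612.2 kb, had regions that moved in opposite directions with Smndc1 shRNA. The region 48.44 kb beyond its downstream end (chr12:90383373-90383953) stood at 8.44, 9.34 and 6.57 CPM in the 3 empty vector libraries, at 1.91, 1.69 and 4.40 with Smndc1 shRNA and at 6.91, 6.11 and 4.22 with Atrx shRNA. All 3 Smndc1 shRNA libraries lay below all 3 empty vector libraries, while the Atrx shRNA libraries overlapped both groups. The level fell with Smndc1 shRNA by 1.61 ± 0.38 on the log2 scale (adjusted p = 0.0495), and with trended offsets the change was -1.66 ± 0.37 (adjusted p = 0.00474). Against Atrx shRNA the change was -1.11 ± 0.39 (adjusted p = 0.518). This call sits at the threshold: it was absent in DESeq2 (adjusted p = 0.108) and limma voom (0.136), and it was lost in the TMM fit without replicate 1 or 2 of empty vector (0.384 and 0.393), replicate 1 or 2 of Smndc1 shRNA (0.335 and 0.177) or replicate 2 of Atrx shRNA (0.0733). With trended offsets it was lost without replicate 1 or 2 of empty vector (0.0529 and 0.103) or of Smndc1 shRNA (0.0818 and 0.0502).

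The Nrxn3 region with the highest CPM, 1629 bp wide and inside the gene body (chr12:89106019-89107647), went the other way. Per kb of width it stood at 19.1 CPM, below the region at the internal start (30.9). In the single libraries the 1629 bp region stood at 34.1, 27.5 and 24.1 CPM with empty vector, at 39.6, 45.3 and 37.9 with Smndc1 shRNA and at 25.2, 28.1 and 18.2 with Atrx shRNA. All 3 Smndc1 shRNA libraries lay above the 6 others. With trended offsets the region rose with Smndc1 shRNA by 0.58 ± 0.15 against empty vector (adjusted p = 0.0192) and by 0.82 ± 0.15 against Atrx shRNA (adjusted p = 0.000373). The TMM fit gave 0.52 ± 0.24 (adjusted p = 0.563) and 0.78 ± 0.24 (adjusted p = 0.327). The difference from Atrx shRNA was called with trended offsets whichever of the 9 libraries was left out. The difference from empty vector was lost without replicate 1 (0.0618) or 2 (0.227) of empty vector or replicate 1 (0.0572) or 3 (0.0558) of Smndc1 shRNA.

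At the internal start of Nrxn3, whose window is printed above, the region (chr12:89811978-89812656) stood at 26.2, 22.8 and 25.8 CPM with empty vector, at 18.5, 14.6 and 13.0 with Smndc1 shRNA and at 28.6, 21.0 and 18.2 with Atrx shRNA. The Smndc1 shRNA libraries lay below all 3 of empty vector and overlapped Atrx shRNA, but the fold change of -0.69 ± 0.23 did not pass the test (adjusted p = 0.275, and 0.0687 with trended offsets). Over the 36 regions of Nrxn3 the fold change with Smndc1 shRNA was negative in 24 and had a median of -0.20, and with Atrx shRNA it was negative in 25 with a median of -0.25. Of all regions, 48.2% were negative with Smndc1 shRNA and 49.3% with Atrx shRNA. The window sum stood at 328, 311 and 268 CPM with empty vector, 288, 277 and 248 with Smndc1 shRNA and 271, 283 and 245 with Atrx shRNA. The groups overlapped, with fold changes of -0.13 ± 0.07 (adjusted p = 0.628) and -0.16 ± 0.07 (adjusted p = 0.592).

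**Figure D3:**
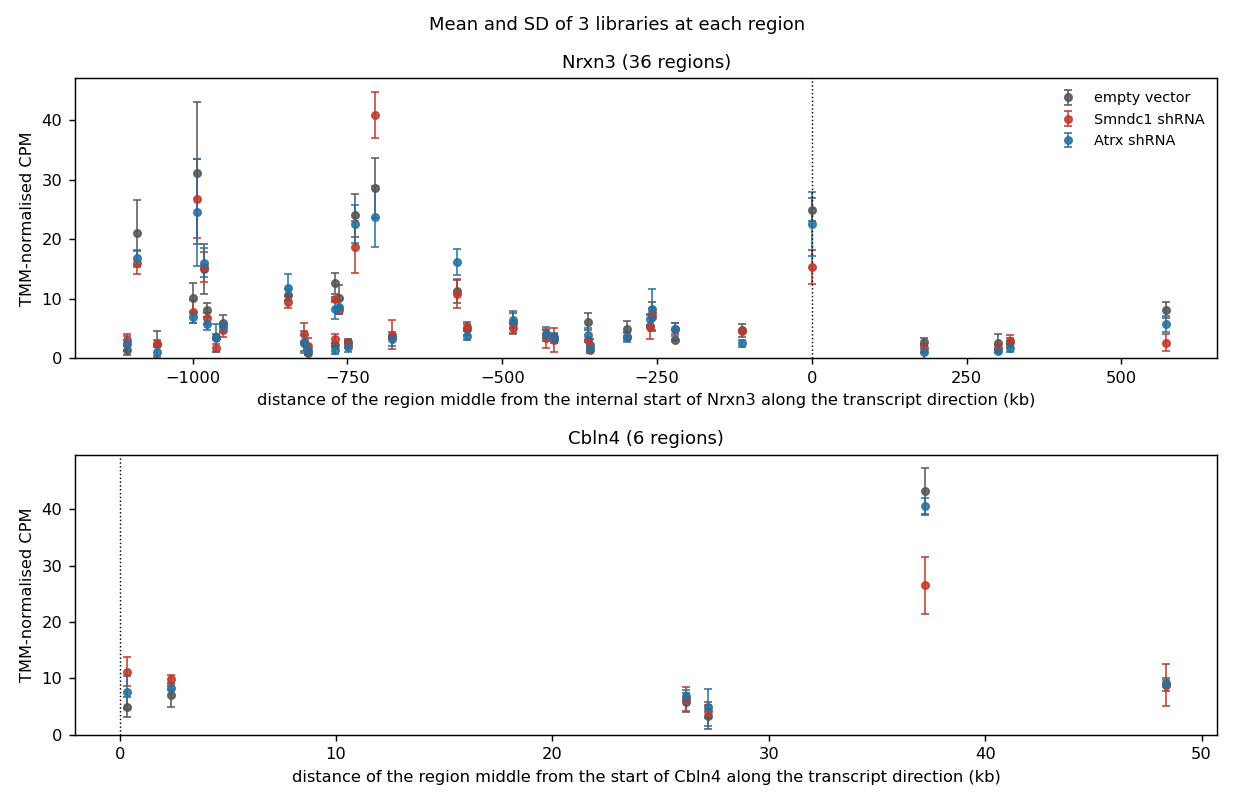
Mean CPM (points) and SD (bars) of 3 libraries for each group at the 36 regions of Nrxn3 (top) and the 6 of Cbln4 (bottom), against the distance in kb of the region middle from the Nrxn3 internal start or the Cbln4 start, along the direction of transcription. In Nrxn3 the Smndc1 shRNA mean stands above the others at the 1629 bp region and below them at the internal start and at the region beyond the gene, and in Cbln4 it stands below them at the strongest region.

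Nrxn2 had 0 called regions. Its most open region, at the low-coordinate end of the gene (chr19:6418137-6418959), stood at 46.9, 47.3 and 42.7 CPM with empty vector, at 49.1, 56.1 and 46.0 with Smndc1 shRNA and at 43.8, 44.3 and 31.3 with Atrx shRNA. These groups overlapped in both comparisons with empty vector. The region at the other end (chr19:6533416-6533916) was weak, at 4.14 ± 0.933 CPM with empty vector. The smallest unadjusted p with Smndc1 shRNA belonged to a region inside the gene (chr19:6497769-6498345), at 11.1, 10.9 and 11.4 CPM with empty vector, 15.6, 20.8 and 13.5 with Smndc1 shRNA and 14.6, 15.5 and 14.3 with Atrx shRNA. Both shRNA groups lay above all empty vector libraries there, with fold changes of 0.58 ± 0.23 (adjusted p = 0.433) and 0.41 ± 0.23 (adjusted p = 0.911). With Atrx shRNA the smallest p belonged to a region 44.57 kb outside Nrxn2 and inside another coding gene, Sf1 (chr19:6373596-6374183). It stood at 4.74, 4.41 and 7.36 CPM with empty vector and 8.99, 10.7 and 11.8 with Atrx shRNA. These 2 groups did not overlap, yet the fold change of 0.94 ± 0.32 had an adjusted p of 0.644.

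Of the neuroligins, Nlgn1 held 13 regions, all inside its body of 911.1 kb. Its region with the highest CPM, 1911 bp wide, covers the second listed start (chr3:26152463-26154373) and stood at 15, 18 and 13.5 CPM with empty vector, 22.8, 18.5 and 11.2 with Smndc1 shRNA and 20.9, 14.1 and 13.8 with Atrx shRNA. The 3 groups overlapped. Per kb of width this start region stood at 8.59 CPM, below 17.4 for a narrower region inside the gene (chr3:26228742-26229352). The fold change with Smndc1 shRNA was negative in 10 of the 13 regions, beside 48.2% of all regions, with a median of -0.28, and 0 were called. The smallest p belonged to a region inside the gene (chr3:26317147-26317784), at 9.33, 8.30 and 5.95 CPM with empty vector, 4.41, 3.73 and 3.89 with Smndc1 shRNA and 6.10, 7.83 and 6.82 with Atrx shRNA. Smndc1 shRNA lay below both other groups in every library, with a fold change of -0.97 ± 0.33 against empty vector (adjusted p = 0.3). In 4 of the 13 regions (30.8%) all Smndc1 shRNA libraries lay below all empty vector libraries, beside 7.02% of all regions, and in 0 above, beside 5.76%. With Atrx shRNA the smallest p belonged to a weak region inside the gene (chr3:26003144-26003644), at 5.33 ± 1.55 CPM with empty vector and 3.32 ± 1.51 with Atrx shRNA (adjusted p = 0.94).

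Nlgn2, a gene of 14.7 kb, had a region on each side of its start, 232 bp inside and 396 bp upstream, and both also lie at the end of Tmem256. The upstream one was the most open of the window, while 3 regions at ends of other genes, at 36.2 to 39.7 CPM over the 9 libraries, were more open than the one inside (29.8 CPM). The upstream region (chr11:69838180-69838763) stood at 69.2, 77.4 and 51.8 CPM with empty vector, 61.5, 67.5 and 43.8 with Smndc1 shRNA and 76.6, 70.4 and 52.3 with Atrx shRNA. The region inside (chr11:69836739-69837552) stood at 27.7 ± 5.91, 28.9 ± 8.14 and 32.7 ± 5.07 CPM. The groups overlapped at both, and replicate 3 of each group was the lowest of its 3 at the upstream region. The smallest p with Smndc1 shRNA belonged to a region 18.81 kb downstream, at ends of Fgf11 and Tmem102 (chr11:69803629-69804309), with 22.6 ± 2.01 CPM with empty vector, 30.1 ± 6.94 with Smndc1 shRNA and 20.2 ± 3.51 with Atrx shRNA (adjusted p = 0.68 for Smndc1 shRNA). With trended offsets its change with Smndc1 shRNA was 0.48 ± 0.17 against empty vector (adjusted p = 0.167) and 0.61 ± 0.18 against Atrx shRNA (adjusted p = 0.0724). The first passed the test only without replicate 3 of empty vector (0.0471), and the second only without replicate 1 of Smndc1 shRNA (0.0365). With Atrx shRNA the smallest p belonged, in the TMM fit, to the region at the end of Plscr3 (chr11:69845465-69845965), at 6.05 ± 0.775 CPM with empty vector and 8.27 ± 2.66 with Atrx shRNA (adjusted p = 0.942). With trended offsets it belonged to a region at ends of Chrnb1 and Fgf11 (chr11:69795153-69795763), at 42.9 ± 4.51 and 34.0 ± 8.48 CPM (adjusted p = 0.388). The window sum changed by 0.12 ± 0.06 with Smndc1 shRNA (adjusted p = 0.558).

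Cbln4, the secreted cerebellin of 7.1 kb, was the member with called regions in both directions in the smallest window. The region at its start (chr2:172042878-172043378) stood at 3.70, 4.15 and 7.04 CPM with empty vector, 11.2, 8.64 and 13.7 with Smndc1 shRNA and 4.50, 7.64 and 10.4 with Atrx shRNA. All 3 Smndc1 shRNA libraries lay above all 3 of empty vector, and replicate 3 was the highest of its group in all 3 groups. With trended offsets it rose with Smndc1 shRNA by 1.23 ± 0.30 (adjusted p = 0.0109), and the TMM fit gave 1.18 ± 0.30 (adjusted p = 0.0844). With replicate 3 of every group left out, the change was 1.33 in the TMM fit (adjusted p = 0.0434) and 1.40 with trended offsets (adjusted p = 0.0186). With trended offsets the call was lost without replicate 1 (0.184) or 2 (0.149) of empty vector or replicate 1 (0.0662) or 3 (0.0596) of Smndc1 shRNA. The change with Atrx shRNA was 0.60 ± 0.31 (adjusted p = 0.888).

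The strongest region of the Cbln4 window lay 29.79 kb downstream of the gene (chr2:172005998-172006542). It stood at 38.4, 45.4 and 45.7 CPM with empty vector, at 25, 32.2 and 22.3 with Smndc1 shRNA and at 40.9, 41.8 and 39.1 with Atrx shRNA. All 3 Smndc1 shRNA libraries lay below the 6 others. With trended offsets it fell by 0.68 ± 0.15 against empty vector (adjusted p = 0.00223) and by 0.60 ± 0.15 against Atrx shRNA (adjusted p = 0.0187). The TMM fit gave -0.70 ± 0.24 (adjusted p = 0.312) and -0.62 ± 0.25 (adjusted p = 0.679). With trended offsets the first call was lost without replicate 3 of empty vector (0.0875), and the second without replicate 1 of Smndc1 shRNA (0.163) or replicate 2 (0.116) or 3 (0.155) of Atrx shRNA. With replicate 3 of every group left out, the trended values were -0.49 (adjusted p = 0.0962) and -0.49 (adjusted p = 0.165). The window sum of Cbln4, in which these regions are added up, changed by -0.11 ± 0.16 (adjusted p = 0.881), whereas the 2 regions of the gene body alone gave 0.86 ± 0.26 (adjusted p = 0.445).

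Nxph1, the neurexophilin, had 1 called region. It lay inside the gene, 199.96 kb from the start (chr6:9149719-9150240), at 7.85, 12.1 and 6.57 CPM with empty vector, 2.79, 5.76 and 2.2 with Smndc1 shRNA and 5.14, 6.11 and 6.49 with Atrx shRNA. Smndc1 shRNA lay below empty vector in every library on the TMM scale, but the groups overlapped in the levels corrected by trended offsets. With trended offsets it fell by 1.29 ± 0.35 (adjusted p = 0.0298), and the TMM fit gave -1.31 ± 0.35 (adjusted p = 0.109). The trended call was lost without replicate 1 (0.106) or 2 (0.434) of empty vector or replicate 1 (0.191) or 3 (0.192) of Smndc1 shRNA. The 1901 bp region at the Nxph1 start (chr6:8948163-8950063) stood at 83.7, 69.3 and 54.0 CPM with empty vector, 76.6, 77.1 and 59.7 with Smndc1 shRNA and 73.7, 63.2 and 48.0 with Atrx shRNA. The groups overlapped there and replicate 3 was the lowest in each, with fold changes of 0.04 ± 0.26 and -0.16 ± 0.26.

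**Figure D4:**
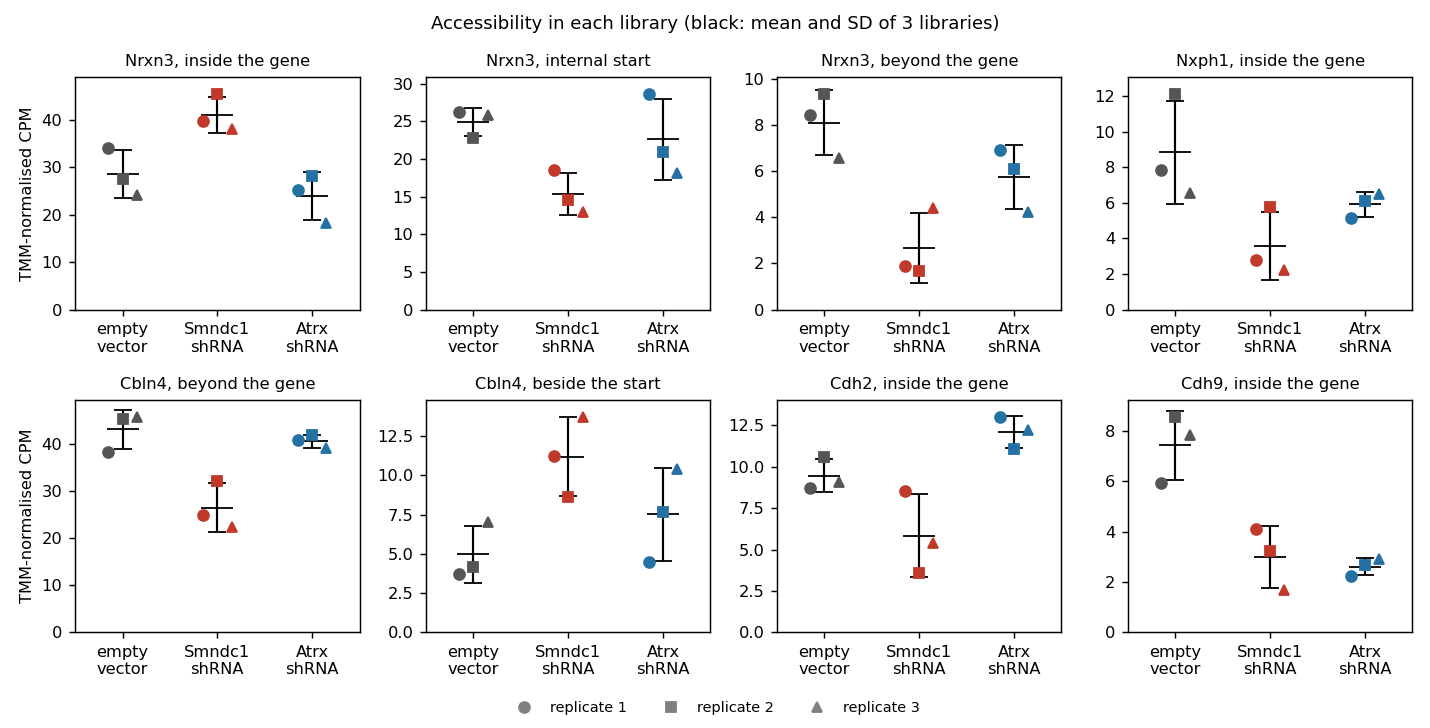
TMM-normalised CPM (y axis, from 0) in each of the 9 libraries at the 6 called regions and at the Nrxn3 internal start and a Cdh9 region that were not called; points are libraries, shaped by replicate number, and black bars are mean and SD of 3. The Smndc1 shRNA libraries sit below those of empty vector in 6 panels and above them in the Nrxn3 region inside the gene and the Cbln4 region beside the start.

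Among the cadherins, Cdh2 carried the region with the highest CPM of all members and 1 call between the shRNAs. The region at its high-coordinate end (chr18:16808085-16809980) stood at 114, 130 and 69.5 CPM with empty vector, 106, 151 and 89.3 with Smndc1 shRNA and 156, 118 and 76.8 with Atrx shRNA. Replicate 3 was the lowest of each group and the groups overlapped. A region inside the gene (chr18:16738671-16739475) stood at 8.74, 10.6 and 9.08 CPM with empty vector, at 8.53, 3.56 and 5.41 with Smndc1 shRNA and at 13.0, 11.1 and 12.2 with Atrx shRNA. On the TMM scale Atrx shRNA lay above and Smndc1 shRNA below the empty vector libraries. With trended offsets the level was lower with Smndc1 shRNA than with Atrx shRNA, at -1.03 ± 0.28 (adjusted p = 0.0489), and the TMM fit gave -1.04 ± 0.28 (adjusted p = 0.171). This trended call was lost without replicate 1 (0.0809) or 2 (0.0901) of empty vector, replicate 2 (0.29) or 3 (0.139) of Smndc1 shRNA, or replicate 1 (0.296), 2 (0.125) or 3 (0.087) of Atrx shRNA. Against empty vector the changes were -0.69 ± 0.28 (adjusted p = 0.45) with Smndc1 shRNA and 0.35 ± 0.27 (adjusted p = 0.952) with Atrx shRNA.

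Cdh9 had 4 regions and 0 calls with all 9 libraries, but 1 region had low levels with both shRNAs. This region inside the gene (chr15:16784537-16785037) stood at 5.92, 8.56 and 7.83 CPM with empty vector, 4.12, 3.22 and 1.69 with Smndc1 shRNA and 2.25, 2.67 and 2.92 with Atrx shRNA. All 6 shRNA libraries lay below the 3 empty vector libraries, which both comparisons share. The fold changes were -1.29 ± 0.42 (adjusted p = 0.256) and -1.50 ± 0.43 (adjusted p = 0.443), and with trended offsets -1.35 ± 0.40 (adjusted p = 0.0647) and -1.57 ± 0.41 (adjusted p = 0.057). The trended value for Atrx shRNA passed the test without replicate 2 or without replicate 3 of Smndc1 shRNA, with a lowest adjusted p of 0.0269, and reached 0.324 without replicate 2 of empty vector. Its mean count was 28.8, so the counts behind these levels are small. At the Cdh9 start, whose window is printed above, the region (chr15:16727823-16729231) stood at 19.8, 16.3 and 14.1 CPM with empty vector, 20.3, 17.3 and 9.47 with Smndc1 shRNA and 13.5, 18.7 and 13.1 with Atrx shRNA, and the groups overlapped.

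Flrt2 had 3 regions, all inside its body of 93.2 kb, and 0 calls. The most open of them (chr12:95695190-95695867) begins 2964 bp past the start and stood at 11.3, 6.87 and 12.8 CPM with empty vector, 14.6, 9.83 and 11.7 with Smndc1 shRNA and 9.63, 7.25 and 5.84 with Atrx shRNA. The Smndc1 shRNA libraries lay above those of Atrx shRNA and both overlapped empty vector, with fold changes of 0.23 ± 0.26 (adjusted p = 0.89) and -0.44 ± 0.27 (adjusted p = 0.925). The direct difference of 0.67 ± 0.27 had an adjusted p of 0.697.

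Summed over its window, no member passed the test in any of the 3 comparisons in edgeR. In the TMM fit, 0 of 18846 gene windows (0%) were called for Smndc1 shRNA, for Atrx shRNA and between them. At an unadjusted p under 0.05 there were 1753, 1528 and 1110 gene windows, among them 0, 1 and 0 members, the 1 being Nrxn3 with Atrx shRNA. DESeq2 called 87, 14 and 7 gene windows. The edgeR fit with replicate number as a block called 543, 431 and 254, but the numbers are not shown to pair the libraries. For Nlgn1 the window sum stood at 83.5, 79.2 and 56.4 CPM with empty vector and 70.9, 59.5 and 49.2 with Smndc1 shRNA, a change of -0.25 ± 0.14 (adjusted p = 0.618) with overlapping groups. For Cdh9 it was -0.33 ± 0.25 (adjusted p = 0.729), and for Flrt2 0.21 ± 0.28 (adjusted p = 0.857).

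The wider family of synaptic adhesion genes was read from a list of 116 genes by role, 113 of them with a region, which gave 1510 regions outside the member windows, 1496 of them tested. With Smndc1 shRNA, 1 rose and 1 fell in the TMM fit, and with trended offsets 13 rose and 12 fell. These are 0.134% and 1.67% of the list's regions, beside 0.156% and 1.11% over all regions. The median fold change was -0.006, beside 0.018 over all regions. In Nrcam, an adhesion molecule of the L1 family, a region fell by 1.46 ± 0.28 (adjusted p = 0.00657), from 12.3 ± 1.19 CPM with empty vector to 4.45 ± 0.0904. In Nectin1, a nectin of cell junctions, a region rose by 1.22 ± 0.27 (adjusted p = 0.0321), from 6.32 ± 2.22 to 14.8 ± 4.10 CPM. The Nrcam call was lost without replicate 1 (0.0738) or 2 (0.0956) of empty vector or replicate 1 of Smndc1 shRNA (0.052). The Nectin1 call was lost without replicate 1, 2 or 3 of empty vector (0.2, 0.107 and 0.0711) or replicate 1 or 2 of Smndc1 shRNA (0.168 and 0.198). The other trended calls of largest size were in Mdga2, Il1rapl1 (-1.37 ± 0.36), near Nfasc (1.17 ± 0.30) and near Dlg2 (0.86 ± 0.24). The Mdga2 region went from 0.228 ± 0.203 to 2.67 ± 0.832 CPM, with so few counts with empty vector that its fold change is not given. Of the 9 trended fits that each left out 1 library, 2 kept the Mdga2 call, 5 the Il1rapl1 call, 5 the Nfasc call and 4 the Dlg2 call.

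By role, the calls with trended offsets for Smndc1 shRNA were 8 higher and 3 lower of 390 regions of a group of immunoglobulin adhesion molecules and Cntnap genes. The higher calls of this group included neighbouring regions in and near Cntnap1 (0.68, 0.6, 0.5 and 0.48), so they were not calls of separate genes. The other roles had 0 and 5 of 108 regions of LAR phosphatases and their ligands, 1 and 3 of 306 of cadherins and catenins, 1 and 2 of 386 of scaffolds, 2 and 0 of 66 of other neurexin ligands, and 1 and 0 of 188 of the FLRT, latrophilin, teneurin and Unc5 group. Over all 80345 regions 332 were called higher and 562 lower in that fit, 1.11% in all. A lower region near Lrrc4b and Shank1 is counted under both the LAR ligands and the scaffolds. Among relatives of the members, Nlgn3 had 0 calls in 8 regions and the other neurexophilins and cerebellins had 0 in 32. With Atrx shRNA the list had 0 calls in the TMM fit and 3 higher and 2 lower with trended offsets, 0.334% of its regions beside 0.256% of all. These were 2 regions at Mdga1 (0.75 ± 0.15 and 0.48 ± 0.12), whose product binds neuroligins, 1 in Cntnap1 (0.59 ± 0.13), 1 near Sdk2 (-0.70 ± 0.17) and 1 in Jup (-0.45 ± 0.11). Each was kept in 2 to 6 of the 9 trended fits that left out 1 library. Between the shRNAs, 1 list region was lower with Smndc1 shRNA in the TMM fit, the Nrcam region (-1.23 ± 0.28, adjusted p = 0.05 after rounding). That call was kept only without replicate 3 of empty vector (0.0283) or of Atrx shRNA (0.0313), and without each of the other 7 libraries its adjusted p lay between 0.0924 and 0.384. With trended offsets 4 were higher and 6 lower, the largest in Il1rapl1 (-1.44 ± 0.36), Cdh10 (-1.23 ± 0.33), Nrcam (-1.23 ± 0.29), Dscam (-0.90 ± 0.20), Cntn1 (-0.83 ± 0.21) and Cdh13 (-0.75 ± 0.17). The list's shares were 0.0668% and 0.668%, beside 0.0759% and 0.576% of all regions, and these 6 calls were kept in 2 to 8 of the 9 trended fits that left out 1 library.

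As a description of pattern, each member was set beside the coding gene whose window level, as log2 CPM over the 9 libraries, had the highest Pearson r among 16539 genes. These were Myo7a for Nrxn2 (r = 0.95), Fgg for Nrxn3 (0.98), Zfand1 for Nlgn1 (0.973), Efnb1 for Nlgn2 (0.987), Aaas for Nxph1 (0.992), Derl1 for Cbln4 (0.875), Arhgef28 for Cdh2 (0.994), Gabrr3 for Cdh9 (0.916) and Sptbn5 for Flrt2 (0.912). All values of r share the 9 libraries with their differences in contrast.

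As a check of the labelled cell type, 9 of 10 alpha cell markers had an open region at a gene end, among them Pcsk2 at 65.8 CPM and Gcg at 31.4. Of 8 beta cell markers 2 had such a region, Mafa at 51.7 CPM and Nkx6-1 at 49.2, and Ins1 and Ins2 had 0 regions. Of the 4 neuron markers, Gad1 (29.5 CPM) and Neurod6 (35.5) had an end region and Rbfox3 and Slc17a7 did not, and delta cell markers had 0 of 2. The summed level of the neuron markers ran from 57.0 to 70.3 CPM with empty vector, 61.1 to 72.4 with Smndc1 shRNA and 50.8 to 75.5 with Atrx shRNA, so the groups overlapped. Of the 3 leukocyte markers Cd68 had an end region and Ptprc and Lyz2 had none, and its level ran from 13.9 to 16.7 CPM with empty vector, 18.8 to 21.6 with Smndc1 shRNA and 15.7 to 20.4 with Atrx shRNA. All Smndc1 shRNA libraries thus lay above all of empty vector at Cd68, as they did in 5.76% of all regions, and its part in the results for Smndc1 shRNA was not tested. For the other cell types' marker sums the groups overlapped or were at 0.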

How the data were processed

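ATAC-seq of 9 libraries was analysed, 3 for each group. The deposited table holds raw counts, whole numbers per consensus region and library, and a deposited list gives each region's position on mm10. The submitters' processing notes list MACS2 2.2.7.1, Bowtie2 2.4.4, bedtools 2.27.1, deepTools 3.5.1 and SAMtools without their roles. The sources used here do not state what was counted (reads, fragments or insertions) or how the regions were built. Per the labels, reads were 75 bp paired-end.

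Gene bodies came from RefSeq bounds on GRCm38.p6, which give no exons, so exonic and intronic places were not analysed here. Strand was taken from the promoter windows and was not used here for Nrxn2 and Cdh2. edgeR 4.0.16 (R 4.3.3) fitted all 9 libraries and 80345 regions with filterByExpr (minimum count 10, leaving out 482), TMM factors, robust quasi-likelihood and 1 coefficient per group. SE is the fold change over the square root of F. Adjusted p-values are Benjamini-Hochberg over all regions, or over 18846 gene windows. Trended offsets used loess with a span of 0.3. The fit was tested on simulated counts. DESeq2 1.42.0 and limma 3.58.1 (voom) were alternatives, with other filters, windows and thresholds and each library left out. Combining trended offsets with left-out libraries was chosen after seeing the data.

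The members, lists and regions were chosen with earlier results of these data known. Named for each member are its most open region, its called regions and the region over a listed promoter window. Where no region covers such a window, regions at gene ends are named instead. The region at the upstream end of the Nrxn3 body is named as well. Where a gene has 0 calls, the region with the smallest p in the TMM fit is also named. From the wider list, up to 6 called regions per comparison and fit are named. Same-numbered libraries of different groups had correlations of their deviations of 0.343 to 0.441 for replicate 3 and of -0.024 to 0.275 for replicates 1 and 2, so the numbers were not taken to pair the libraries. Software for tables and plots was Python 3.11.15, pandas 2.3.3 and matplotlib 3.10.9. Values of some genes on the wider lists are not reported here.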

Additional observations from a re-analysis of the deposited data

How the results depend on the processing

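Member counts were small in every setting. For Smndc1 shRNA against empty vector, the 1 call of the TMM fit became 5 with trended offsets, 2 with replicate 3 of every group left out, and 0 in DESeq2 and in limma voom. It was also 0 at an adjusted p under 0.01, in gene bodies alone and with 10 kb on both sides. These settings reuse the same fit, and the call has an adjusted p of 0.0495 and lies 48.44 kb outside Nrxn3. Their zeros were thus fixed in advance and are not separate checks. Leaving out 1 library gave 0 to 3. DESeq2 gave no adjusted p for 41 of the 114 members there and for 60 between the shRNAs. Between the shRNAs, 0 became 3 with trended offsets, 1 at a mean count of at least 50, 1 without replicate 3 of every group, and 0 to 0 with 1 library left out. For Atrx shRNA against empty vector it was 0 in all of these settings, and 0 to 0 in the TMM fit with 1 library left out. With trended offsets and 1 library left out, the 5 calls for Smndc1 shRNA became 1 to 5, all among the original 5 except 1 of the 5 without replicate 3 of empty vector. In the same fits Atrx shRNA against empty vector gave 1 call without replicate 2 or without replicate 3 of Smndc1 shRNA and 0 otherwise. The 3 calls between the shRNAs became 1 to 3. All were among the original 3 except 1 of the 3 without replicate 1 of Smndc1 shRNA. That call, and the new call without replicate 3 of empty vector, were the region 18.81 kb downstream of Nlgn2. For the wider list, Smndc1 shRNA gave 2, with 25 under trended offsets, 1 in DESeq2, 0 in limma voom, 7 at a mean count of at least 50, 10 without replicate 3 of every group, 1 at an adjusted p under 0.01 and 0 to 10 with 1 library left out. Atrx shRNA gave 0 and 5 under trended offsets, with 0 to 0 on leaving out a library. Between the shRNAs it was 1, with 10 under trended offsets, 3 at a mean count of at least 50, 5 without replicate 3 of every group, 0 with RLE factors, DESeq2, limma voom, no filter, 6 libraries or an adjusted p under 0.01, and 0 to 2 with 1 library left out. Gene windows of members gave 0 throughout, and 0 to 0 with 1 library left out, but DESeq2 gave no adjusted p for 4 of the 9 (Nlgn1, Cbln4, Cdh9 and Flrt2) in both comparisons with empty vector. Replicate number as a block gave 5 and 3 member calls for Smndc1 shRNA against empty vector and against Atrx shRNA, and 7, 2 and 4 with trended offsets (the 2 for Atrx shRNA against empty vector); for the list the block gave 28, 2 and 13, and 49, 17 and 32 with trended offsets, but the numbers are not shown to pair the libraries: the replicate 3 libraries of the 3 groups deviated together (correlations of 0.343 to 0.441), while not every library correlated best with its own number. Of 625 alternative values, 1 turned in direction: Flrt2 with Atrx shRNA, at 0.0 with trended offsets and without replicate 3 of every group. These values cover 19 region and comparison pairs, nearly all called or of smallest p, and member windows of low unadjusted p. Their directions were therefore likely to hold. Some other named regions did turn in the TMM fit with 1 library left out. With Smndc1 shRNA against empty vector the change ran from -0.11 to 0.21 at the Nxph1 start and from -0.1 to 0.33 at the Cdh2 end. The cause of these differences was not tested. Mean counts of about 28 to 49 at several named regions limit their precision.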
